A study of Mus musculus with 278 samples.

Results

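Peroxiredoxins and antioxidant enzymes are described here by 10 listed genes, of 23354 in the expression matrix: the peroxiredoxins Prdx1, Prdx2, Prdx3, Prdx4, Prdx5 and Prdx6, the superoxide dismutases Sod1 and Sod2, and the glutathione peroxidases Gpx1 and Gpx4. All 10 were found in the matrix, and all 10 passed the filter on low values (1 FPKM or more in 10% of cells or more). The samples were 278 single spermatogonia, the mitotic germ cells of the testis, sorted as Id4-EGFP positive from untreated mice at postnatal day 6 and captured on a Fluidigm C1 chip. All cells carried the Id4-EGFP reporter, in which EGFP marks expression of Id4, an inhibitor of DNA binding linked to spermatogonial stem cells. They were grouped by EGFP brightness into Q1 (bright, 74 cells), Q2 (70 cells), Q3 (74 cells) and Q4 (dim, 60 cells). A protocol passage in the labels gives the dim quartile another number, Q2, and the order used here is that of the design text. Testes of several pups were pooled per suspension. The run number in the sample titles was taken as the preparation, which gave 5 preparations, each with cells of all 4 quartiles. On that reading the preparation is the replicate (n = 5). Whether the preparations stem from different litters is not in the labels, so p-values may measure spread that is partly technical.

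Cells that respire produce superoxide, which superoxide dismutases convert to hydrogen peroxide. Peroxiredoxins and glutathione peroxidases reduce the peroxide to water, drawing electrons from thioredoxin or glutathione and, in the end, from NADPH. In spermatogonial stem cells, low levels of these oxidants are known to act as growth signals, while high levels damage germ cells.

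Of 13 germ cell markers, 12 passed the filter on low values; Dazl, Uchl1, Ddx4 and Mael reached 1 FPKM in 100% of cells, and Dppa3 was lowest with 7.91%. Transcripts of Id4 itself reached 1 FPKM in 41.7% of cells. Somatic markers were low but not all absent. Of 6 Leydig cell markers 1 passed the filter, Star, at 1 FPKM in 19.8% of cells, and Cyp11a1, Cyp17a1, Hsd3b1, Insl3 and Lhcgr were listed at 0 in every cell. Of 8 Sertoli cell markers 2 passed, Rhox5 (14.4% of cells) and Clu (10.1%), with the list's sum at 13.9 to 70.6 FPKM in Q1 and 0.459 to 18.4 FPKM in Q4 over preparations. Of 7 peritubular and stromal markers 2 passed, Col1a1 (23.4%) and Pdgfra (17.3%), with sums of 1.33 to 8.75 FPKM in Q1 and 0.538 to 5.13 FPKM in Q4. Of 5 endothelial markers 1 passed, Pecam1 (10.1%), with sums of 1.1 to 4.22 FPKM in Q1 and 0.319 to 23.8 FPKM in Q4. Of 5 macrophage markers in the matrix 1 passed, Cd68 (14.4%), with sums of 0 to 10.96 FPKM in Q1 and 0 to 7.75 FPKM in Q4. The part of other cell types in the results was not tested. Of 7 erythroid markers in the matrix, 5 were below 1 FPKM in every cell, and summed erythroid markers averaged 0 to 8.2 FPKM in Q1 and 0 to 0.24 FPKM in Q4 per preparation. Red blood cells are rich in Prdx2, which is why that list is given. Estimated depth ran from 203030 to 1438226 fragments per cell (median 616100). Preparation 3 stood apart: its cells had 4437 detected genes on average, against 5875 to 7148 in the other preparations. Its mean estimated depth was the highest, at 722951 fragments per cell. Preparation 1, with the most detected genes, had the lowest, at 396461. Detected genes also differed along the quartiles, with 6293 ± 931 in Q1 cells and 5732 ± 1305 in Q4 cells (SD, n = 5). Their part in the differences below was not tested beyond a fit with detected genes as a covariate.

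The transcripts were abundant and unequal. FPKM is scaled to transcript length, and on that basis levels are set side by side between genes. The order depends on the lengths used in the quantification, which were not checked. The annotated transcripts chosen here run from 641 bases (Sod1) to 5861 bases (Sod2). Sod1, the copper-zinc dismutase of the cytosol, led with a mean of 2222 ± 688 FPKM over the preparations (SD, n = 5), and only 7 of the 10452 genes tested had a higher mean over cells. Prdx1, a cytosolic peroxiredoxin that uses thioredoxin, followed with 1354 ± 296 FPKM, and 24 tested genes had a higher mean. Next came Gpx1, the cytosolic glutathione peroxidase, with 458 ± 185 FPKM, and Prdx4, the peroxiredoxin of the endoplasmic reticulum, with 338 ± 56.98 FPKM. Prdx2, the other major cytosolic peroxiredoxin, had 156 ± 10.3 FPKM.

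The lower end held Prdx5, Prdx6, Prdx3, Gpx4 and Sod2, enzymes of several compartments. Prdx5, a peroxiredoxin found in mitochondria, peroxisomes and cytosol, averaged 116 ± 33.2 FPKM, and Prdx6, which reduces phospholipid peroxides, 113 ± 9.58 FPKM (SD, n = 5). Prdx3, the peroxiredoxin of the mitochondrial matrix, had 53.1 ± 17.4 FPKM. Gpx4, which reduces lipid peroxides in membranes and restrains ferroptosis, had 43.3 ± 2.69 FPKM, and Sod2, the manganese dismutase of mitochondria, 33.6 ± 1.88 FPKM. The order Sod1 over Prdx1 over Gpx1 held in 5 of 5 preparations and in all 20 means of a preparation and quartile. Prdx4 over Prdx2 and Prdx6 over Prdx3 also held in 20 of 20. The other neighbours in the order were less separate: Gpx1 was above Prdx4 in 4 of 5 preparations, Prdx2 above Prdx5 in 4 of 5, Prdx3 above Gpx4 in 4 of 5 and Prdx5 above Prdx6 in 2 of 5. Gpx4 was above Sod2 in 5 of 5 preparations but in only 14 of the 20 means.

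**Figure D1:**
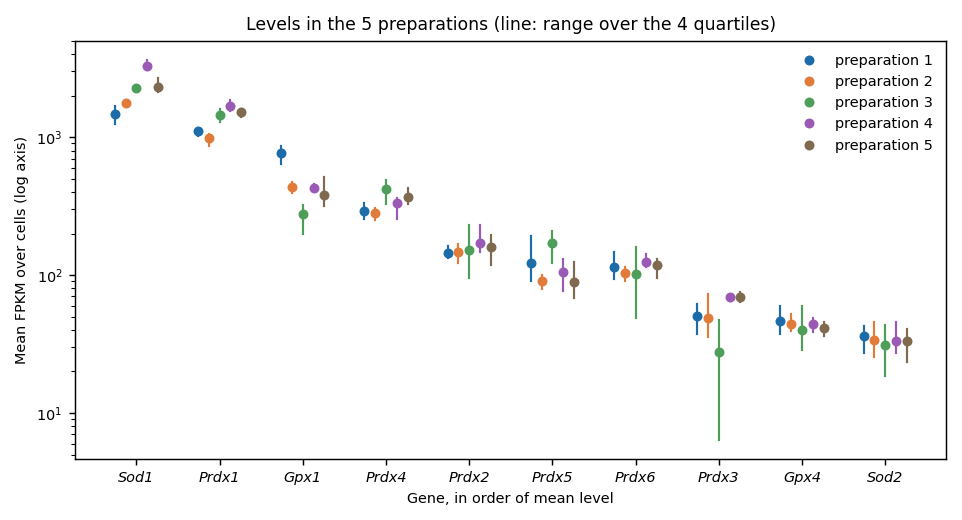
Mean FPKM of each gene (log axis) in the 5 preparations; a point is the mean of the 4 quartile means of a preparation, and the line spans the lowest to the highest quartile mean. Sod1 and Prdx1 stand above the other 8 genes in every preparation, preparation 4 is highest for Sod1 (3276 FPKM) and preparation 1 for Gpx1 (769 FPKM), and the lowest point for Prdx3 is preparation 3 (27.8 FPKM).

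Together the 10 transcripts made up 0.942% of a cell's summed FPKM on average, with a range of 0.508% to 1.68% over cells. Sod1 and Prdx1 supplied 75.1% of that sum in the median cell. The quartiles had sums of 4981 ± 972 FPKM (Q1), 4650 ± 912 FPKM (Q2), 4821 ± 785 FPKM (Q3) and 5095 ± 1080 FPKM (Q4; SD, n = 5), and the ranges over preparations overlapped, from 3959 to 6420 in Q1 and from 3848 to 6700 in Q4. All 10 genes reached 1 FPKM in 180 of 278 cells, and another 72 cells had 9 of them. By preparation, all 10 were found in 84.6%, 69.4%, 21.6%, 70.7% and 69.2% of the cells of preparations 1 to 5, so preparation 3, with the fewest detected genes, was also lowest here. By quartile, the mean of the preparations was 65.5% ± 11.5 for Q1, 66% ± 29.2 for Q2, 66.8% ± 33.5 for Q3 and 53.1% ± 31.2 for Q4 (SD, n = 5).

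Cells varied little in some of these genes and greatly in others. Sod1 and Prdx1 were listed at 0 in no cell, and their lowest values were 951 and 592 FPKM. The coefficient of variation between the cells of 1 preparation (quartiles pooled) had a median of 21.2% for Sod1 and 27.6% for Prdx1. It was 45.5% for Prdx4 and 109% for Prdx3. Sod1 and Prdx1 are also the most abundant members, and the spread was not set beside that of other genes of similar level. Prdx3 was listed at 0 in 65 cells, against 16 for Prdx2, 14 for Sod2, 11 for Prdx5, 7 each for Prdx6 and Gpx1, 5 for Gpx4 and 4 for Prdx4. A listed 0 may not mean an absent transcript, which was not tested. Genes of similar level differed in this respect. Only 1 cell had no Gapdh value above 0, although the Gapdh median (27.8 FPKM) was below those of Prdx3 (36.8 FPKM) and Sod2 (28.9 FPKM). The widely used genes Actb, Eef1a1, Rps3 and Ubb, with medians of 909 to 2678 FPKM, were listed at 0 in 0 cells. At the median depth, 1 fragment is worth 0.277 FPKM for Sod2 and 2.53 FPKM for Sod1, so single-fragment values differ in size between the genes.

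**Figure D2:**
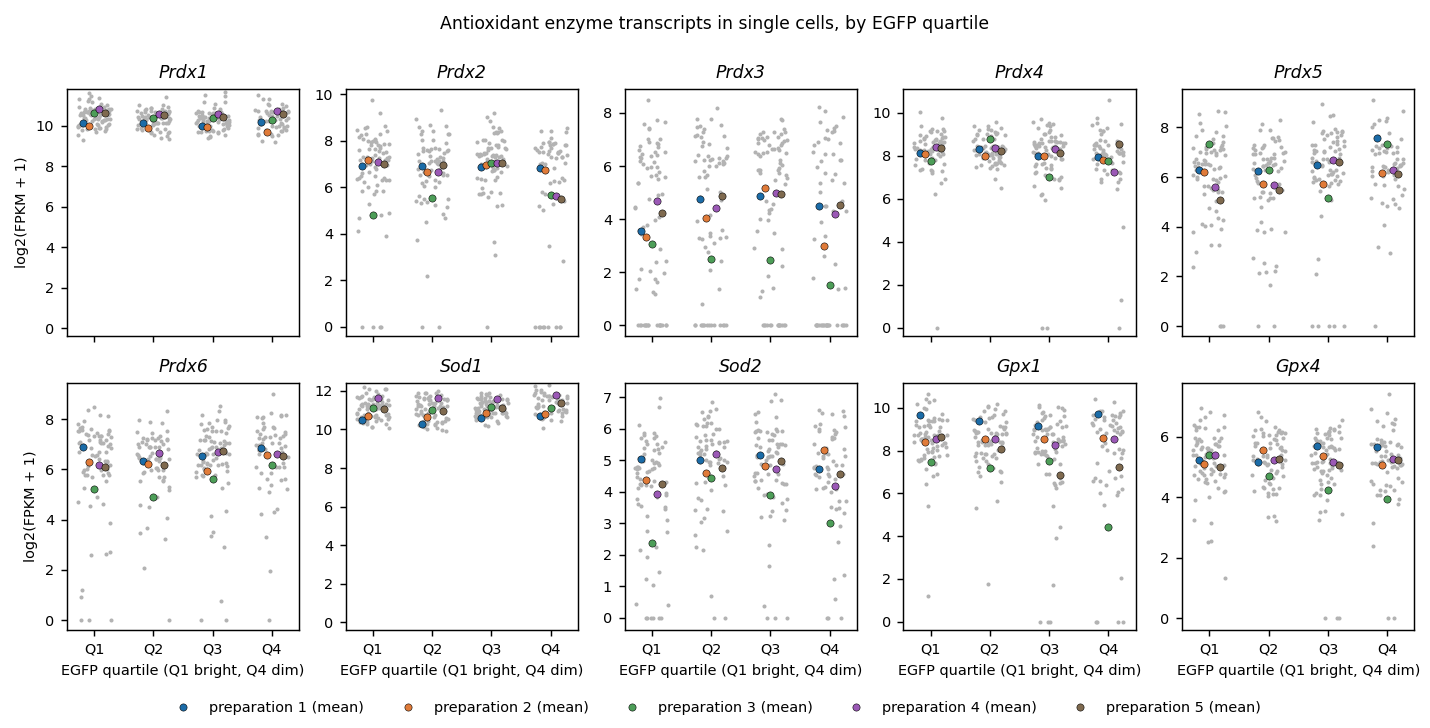
Expression of each gene as log2(FPKM + 1) in every cell (grey points) by EGFP quartile, from Q1 (bright) to Q4 (dim), with the mean of each preparation in colour. Sod1 and Prdx1 form narrow bands far above 0, Prdx3 has many cells listed at 0 in every quartile (65 in all), and preparation 3 lies low in several panels.

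No member passed the test between the brightest and the dimmest cells. With limma on the 20 means of a preparation and quartile (preparation as a block, Benjamini-Hochberg adjustment over 10452 genes), 8 genes were called between Q1 and Q4, which is 0.0765% of those tested, and 0 of the 10 members were among them; 3 members were at an unadjusted p under 0.05. Of all genes, 11.4% were at that unadjusted level, 1084 higher and 108 lower in Q1. The members' adjusted p-values in limma ran from 0.285 to 0.884. Their median difference, Q1 minus Q4, was 0.14 on the log2(FPKM + 1) scale, with 6 of 10 above 0, beside a median of 0.17 over all genes tested, with 69.5% above 0. After scaling of the cells to the same 75th percentile, 7 of 10 were above 0 (median 0.34, all genes 0.26), and with detected genes as a covariate 5 of 10 (median -0.01, all genes -0.02). For the linear trend over the quartiles, 14 genes (0.134%) were called, none of them a member, and 3 members were at an unadjusted p under 0.05, a level that 12.2% of all genes reached. Between neighbouring quartiles, 0 genes (0%) were called in each of 3 comparisons; at the unadjusted level there were 426 genes (4.08%) and 1 member for Q1 minus Q2, 489 genes (4.68%) and 0 members for Q2 minus Q3, and 773 genes (7.4%) and 2 members for Q3 minus Q4.

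The 6 peroxiredoxins share a catalytic step: a cysteine, called peroxidatic, is oxidised by the peroxide and then reduced again. The coding stretches around that cysteine are shown because they hold the residue that reacts with peroxide and let the members be compared. They were read from the GENCODE M21 transcripts of GRCm38 at the only place where the translation holds proline, 3 residues of any kind, threonine, 2 of any kind and cysteine; each is 30 bases in the reading direction, and the cysteine codon is in capitals.
Prdx1: cctcttgactttacttttgtgTGTcccacg
Prdx2: ccactggacttcacttttgttTGCcccacg
Prdx3: cctttggatttcacatttgtgTGTcctaca
Prdx4: ccactggatttcacctttgtgTGTccaact
Prdx5: cctggggcatttacacctggcTGTtctaag
Prdx6: ccacgggactttaccccagtgTGCaccaca
The capitals fall on codon 52 of Prdx1, 51 of Prdx2, 109 of Prdx3, 127 of Prdx4, 96 of Prdx5 and 47 of Prdx6. Prdx1 and Prdx2 share 25 of the 30 bases, as do Prdx3 and Prdx4, while Prdx5 shares 15 to 18 with the other members. Prdx1 has 3 processed pseudogene copies and Prdx2 has 2 in the annotation, at 90% identity or more over at least 100 coding bases. None of these copies is a gene of the matrix, so reads shared with them are an uncertainty of the Prdx1 and Prdx2 values.

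Prdx1 (chr4:116685544-116700822, plus strand) had quartile means that differed by less than the spread between preparations. They were 1455 ± 346 FPKM for Q1, 1314 ± 238 for Q2, 1310 ± 274 for Q3 and 1336 ± 358 for Q4 (SD, n = 5). Q1 minus Q4 was 0.13 ± 0.08 on the log2 scale (SE, 95% interval -0.03 to 0.30, adjusted p = 0.56 in limma). After scaling of the cells to the same 75th percentile, where the median of all genes was 0.26, it was 0.36 ± 0.10 (adjusted p = 0.0805). The Q1 mean was above the Q4 mean in 4 of 5 preparations, and the groups overlapped.

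Prdx2 (chr8:84969587-84974834, plus strand) had the largest of the 10 estimates between Q1 and Q4. Its means in Q1 cells were 163, 165, 95.9, 229.5 and 161 FPKM in preparations 1 to 5, against 133, 139, 177, 146 and 118 FPKM in Q4 cells. Q1 was higher in 4 of 5 preparations and lower in preparation 3, and the groups overlapped. The intermediate quartiles averaged 145 ± 33.7 FPKM (Q2) and 172 ± 35.2 FPKM (Q3; SD, n = 5). The fitted difference was 0.80 ± 0.30 on the log2 scale (SE, 95% interval 0.18 to 1.42, adjusted p = 0.285 in limma), and it was 1.07 ± 0.23 without preparation 3 (adjusted p = 0.0806), 0.58 ± 0.36 without preparation 4 (adjusted p = 0.647) and 0.50 ± 0.35 without preparation 5 (adjusted p = 0.72).

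Cells listed at 0 weigh in this estimate. Prdx2 was listed at 0 in 4 of 74 Q1 cells, 2 of 70 Q2 cells, 1 of 74 Q3 cells and 9 of 60 Q4 cells, and outside preparation 3 in 1 of 63, 1 of 63, 0 of 62 and 7 of 53 cells of Q1 to Q4. With the log taken after averaging FPKM over cells, the difference was 0.27 ± 0.21 (SE, adjusted p = 0.796 in limma). Q3 minus Q4 gave a higher estimate, 1.12 ± 0.30 (adjusted p = 0.51 in limma). Prdx2 exons overlap those of Rnaseh2a by 177 bases and of Junb by 173 bases on the opposite strand, and strand use in the counting is not given in the sources used here. Rnaseh2a averaged 83.5 ± 20.3 FPKM in Q1 and 93.04 ± 19.4 FPKM in Q4, and Junb 0.346 ± 0.455 FPKM in Q1 and 0.261 ± 0.583 FPKM in Q4 (SD, n = 5).

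Prdx3 (chr19:60864051-60874556, minus strand) was the most uneven member between cells. Its means were 42.9, 35.4, 27.96, 64.9 and 64.7 FPKM in Q1 of preparations 1 to 5, against 37.3, 45.6, 6.42, 72.04 and 75.2 FPKM in Q4. The means were 62.2, 40.2, 47.2, 71.7 and 64.2 FPKM in Q2 and 58.3, 73.3, 29.7, 69.5 and 73.5 FPKM in Q3, and no quartile was highest in every preparation. The limma differences were 0.27 ± 0.34 for Q1 minus Q4 (adjusted p = 0.813; 0.07 without preparation 3 and 0.50 without preparation 5) and 0.97 ± 0.34 for Q3 minus Q4 (adjusted p = 0.572).

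Prdx4 (chrX:155323918-155340754, minus strand) averaged 344 ± 44.1 FPKM for Q1, 353 ± 80.99 for Q2, 322.5 ± 24.96 for Q3 and 334 ± 112 for Q4 (SD, n = 5), and Q1 minus Q4 was 0.31 ± 0.22 (adjusted p = 0.628 in limma). That value rested on preparation 4 and was 0.02 ± 0.22 without it (adjusted p = 0.986), and 0.55 ± 0.25 without preparation 5 (adjusted p = 0.548). Prdx5 (chr19:6906697-6910106, minus strand) and Prdx6 (chr1:161240112-161251219, minus strand) had estimates below 0. Prdx5 averaged 108 ± 45.6 FPKM for Q1, 94.02 ± 19.2 for Q2, 118 ± 30.8 for Q3 and 142 ± 56.99 for Q4 (SD, n = 5), a Q1 minus Q4 difference of -0.53 ± 0.35 (adjusted p = 0.599), and -1.27 ± 0.53 when the number of detected genes was a covariate (adjusted p = 0.849). Prdx6 averaged 111 ± 15.5 FPKM for Q1, 90.4 ± 26.7 for Q2, 113 ± 13.3 for Q3 and 137 ± 19.7 for Q4 (SD, n = 5), a Q1 minus Q4 difference of -0.41 ± 0.23 (adjusted p = 0.505), and was lower in Q1 in 4 of 5 preparations. Prdx5 exons overlap those of Trmt112 by 409 bases on the opposite strand; Trmt112 averaged 24.2 ± 4.47 FPKM in Q1 and 19.5 ± 5.54 FPKM in Q4 (SD, n = 5). The near copy Prdx6b, 92.9% identical to Prdx6 over 672 coding bases, was listed at 0 in every cell.

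**Figure D3:**
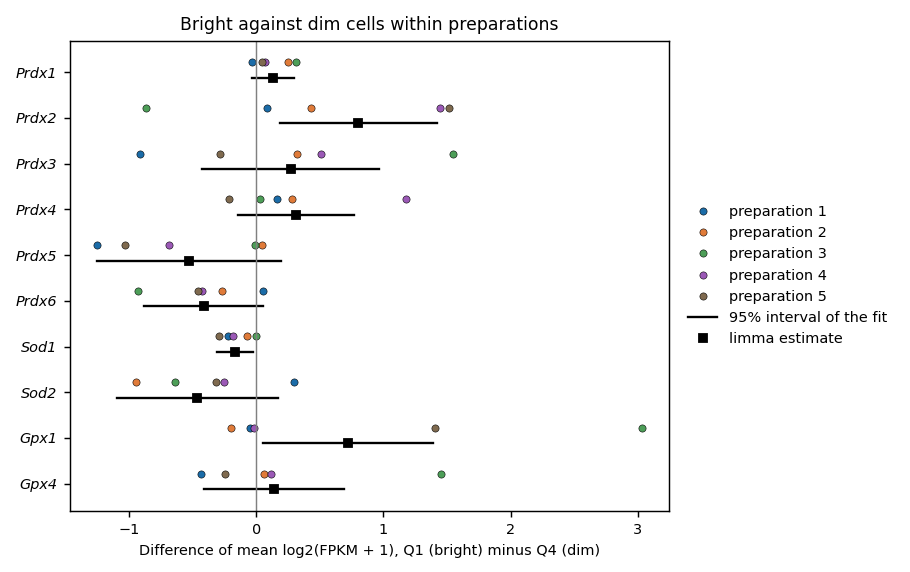
Difference of mean log2(FPKM + 1) between Q1 (bright) and Q4 (dim) cells for each gene, in each preparation (coloured points) and as the limma estimate with its 95% interval (black). The estimates run from -0.53 for Prdx5 to 0.80 for Prdx2, points lie on both sides of 0 for every gene but Sod1, and the farthest point is Gpx1 in preparation 3 (3.04).

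Sod1 (chr16:90220754-90226329, plus strand) differed more between preparations than between quartiles. Its means in Q1 were 1430, 1722, 2333, 3221 and 2220 FPKM in preparations 1 to 5, against 1673, 1799, 2270, 3642 and 2676 FPKM in Q4. Averaged over preparations, the levels were 2185 ± 686 FPKM for Q1, 2074 ± 731 for Q2, 2219 ± 562 for Q3 and 2412 ± 794.5 for Q4 (SD, n = 5). The 4 quartile means of preparation 4 lay between 3050 and 3642 FPKM, above every mean of the other preparations, which reached 2676 FPKM at most. Within preparations, mean log2 values were lower in Q1 than in Q4 in 5 of 5, although in preparation 3 the difference was nearly 0. The fitted difference was -0.17 ± 0.07 (SE, 95% interval -0.31 to -0.03, adjusted p = 0.333 in limma), but it was 0.06 ± 0.09 after scaling of the cells to the same 75th percentile. That scaling moved the median difference of all genes to 0.26, against 0.17 as deposited. Over cells, Sod1 correlated with the number of detected genes at r = -0.34 (278 cells, preparation means subtracted), so its level was lower in cells with more genes detected. With detected genes as a covariate, the Q1 minus Q4 difference of Sod1 was -0.11 ± 0.11 (SE, adjusted p = 0.97 in limma). The annotation holds 1 processed pseudogene copy of Sod1, which is not a gene of the matrix.

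Sod2 (chr17:13006846-13040063, plus strand) had its lowest mean over preparations in the brightest cells, though not in every preparation. The values in Q1 were 34.2, 25.3, 18.6, 27.96 and 23.5 FPKM in preparations 1 to 5, against 40.8, 31.8, 43.6, 45.8 and 35.4 FPKM in Q2. The Q1 mean FPKM was below that of Q2 in 5 of 5 preparations and below that of Q3 in 5 of 5, and the ranges over preparations overlapped for Q1 and Q2. Against Q4, the Q1 mean FPKM was higher in 2 of 5 preparations. Mean log2 values in preparation 1 were 5.03 in Q1 and 5.02 in Q2. Q1 minus Q2 was -0.79 ± 0.29 on the log2 scale (SE, adjusted p = 0.999 in limma), and Q1 minus Q4 was -0.46 ± 0.31 (adjusted p = 0.595; -0.30 without preparation 2). Mean levels were 25.9 ± 5.77 FPKM for Q1, 39.5 ± 5.78 for Q2, 37.8 ± 5.07 for Q3 and 31.1 ± 9.27 for Q4 (SD, n = 5). Sod3, the secreted dismutase, was listed at 0 in every cell.

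Gpx1 and Gpx4 are selenoproteins: they carry selenocysteine in the active site, encoded by a TGA codon that would otherwise end translation. The stretches below show that in-frame TGA in capitals, with the 21 bases before it and 6 after it, from the same annotation.
Gpx1: attgagaatgtcgcgtctctcTGAggcacc
Gpx4: gtcaccaacgtggcctcgcaaTGAggcaaa
The TGA is codon 47 of Gpx1 and codon 73 of Gpx4, and the stretches share 17 of 30 bases. For Gpx4, 2 pseudogene copies not in the matrix leave an uncertainty; for Gpx1 none was found.

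Gpx1 (chr9:108338903-108340343, plus strand) had the second largest estimate, and it rested on few preparations. Its means in Q1 were 852.5, 393, 323, 406 and 513 FPKM in preparations 1 to 5, against 858, 475, 200.2, 459 and 346 FPKM in Q4. Q1 was above Q4 in preparations 3 and 5 only, and the groups overlapped. On the log2 scale the difference was 3.04 in preparation 3 and 1.40 in preparation 5, while the other preparations lay between -0.20 and -0.02. The fitted value was 0.72 ± 0.32 (SE, 95% interval 0.05 to 1.39, adjusted p = 0.395 in limma), 0.40 ± 0.23 without preparation 3 (adjusted p = 0.554) and 0.47 ± 0.35 without preparation 5 (adjusted p = 0.736). Gpx1 was listed at 0 in 0 of 74 Q1 cells, 0 of 70 Q2 cells, 3 of 74 Q3 cells and 4 of 60 Q4 cells, and outside preparation 3 in 0 of 63, 0 of 63, 2 of 62 and 1 of 53 cells of Q1 to Q4. The intermediate quartiles averaged 442 ± 172 FPKM (Q2) and 426 ± 133 FPKM (Q3; SD, n = 5), beside 497.5 ± 209.8 FPKM (Q1) and 468 ± 244 FPKM (Q4). With the log taken after averaging over cells, the difference was 0.13 ± 0.14 (adjusted p = 0.862). Preparation 1 had the highest Gpx1, with quartile means of 642 to 858 FPKM that were all above the highest mean of the other preparations, 513 FPKM.

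Gpx4 (chr10:80047166-80056439, plus strand) averaged 44.4 ± 9.67 FPKM for Q1, 41.02 ± 8.77 for Q2, 42.9 ± 6.07 for Q3 and 44.96 ± 9.9 for Q4 (SD, n = 5). Q1 minus Q4 was 0.14 ± 0.27 (adjusted p = 0.884 in limma), and it was -0.06 ± 0.24 without preparation 3 (adjusted p = 0.957). Of the other glutathione peroxidases, Gpx3 reached 1 FPKM in 36.7% of cells, Gpx7 in 14.03%, Gpx2 in 6.83% and Gpx8 in 4.68%, so Gpx1 and Gpx4 were the family members found in nearly every cell.

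The members showed little correlation from cell to cell. After subtraction of preparation means, the 45 pairs had Pearson correlations over 278 cells of -0.20 to 0.29 with a median of 0.024, and 27 pairs were above 0. These values share each cell's depth and number of detected genes, and with the slope on detected genes also subtracted the median was 0.021. The highest pair was Sod1 and Gpx4, with r = 0.29 and values of 0.184 to 0.506 in the 5 preparations. The lowest was Prdx1 and Sod2, with r = -0.20 and values of -0.327 to -0.029. In sparse data such weak correlations are only a description.

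**Figure D4:**
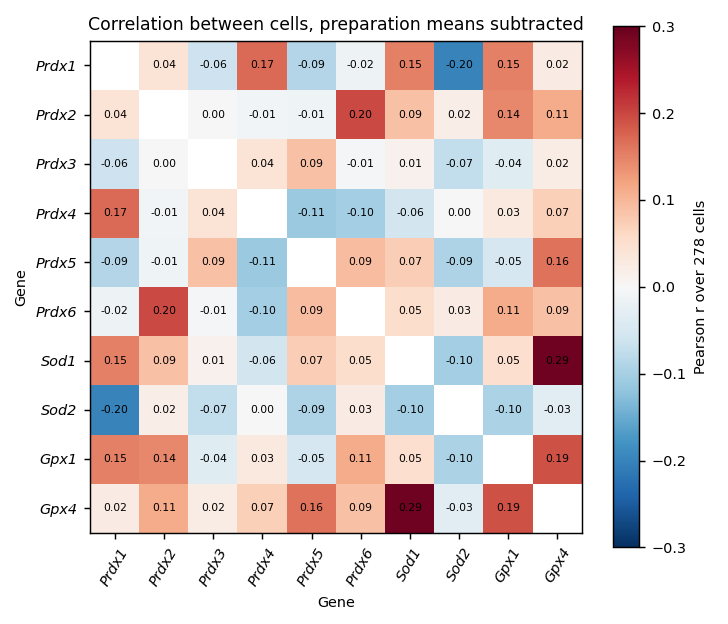
Pearson correlation over 278 cells of log2(FPKM + 1) between each pair of the 10 genes, with preparation means subtracted; colour runs from -0.3 (blue) to 0.3 (red). Most squares are pale, the deepest red is Sod1 with Gpx4 (0.29) and the deepest blue is Prdx1 with Sod2 (-0.20).

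For each member, the tested gene with the most similar pattern over cells was named by the same correlation. Across all tested genes, the correlation with the best match had a median of 0.269. Gpx1 stood highest: its best match was Ccnd2, which encodes cyclin D2, a cell cycle regulator, with r = 0.62 over 278 cells, followed by Dstn, an actin-severing protein, with 0.512. Within preparations the Gpx1 and Ccnd2 correlation was -0.101, 0.528, 0.605, 0.594 and 0.712 in preparations 1 to 5. Ccnd2 was picked for its high value in these same cells, so values above 0 in 4 of 5 are a description. In preparation 1, the lowest Ccnd2 value of a cell was 73.1 FPKM. Low cells contributed to it: of the 12 cells with Gpx1 under 20 FPKM, 8 had Ccnd2 under 1 FPKM, and in the 261 cells with both genes at 1 FPKM or more, r was 0.437. Ccnd2 itself averaged 119 ± 29.02 FPKM in Q1 and 88.5 ± 49.3 FPKM in Q4 (SD, n = 5). Its difference of mean log2(FPKM + 1) was 1.10 ± 0.45 (adjusted p = 0.336 in limma).

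**Figure D5:**
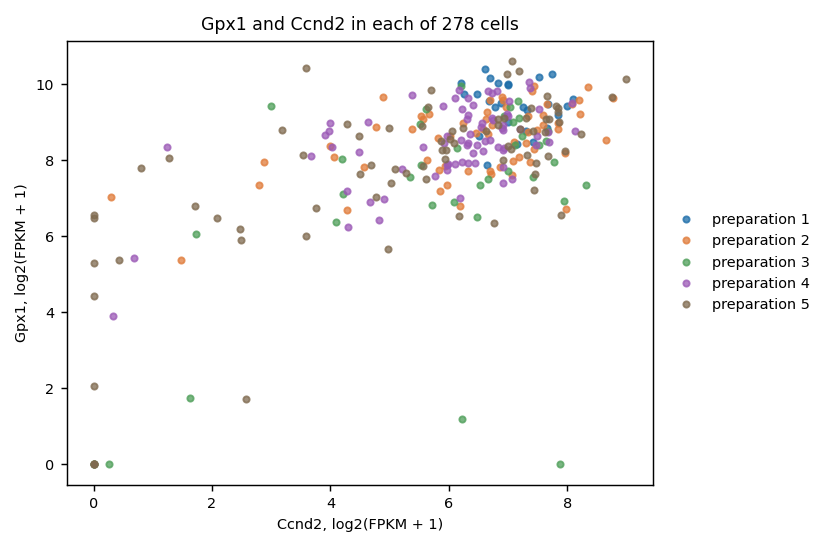
Gpx1 against Ccnd2 in each of 278 cells, both as log2(FPKM + 1), coloured by preparation. Most cells lie in a cloud at high values of both genes, and cells with Ccnd2 near 0 tend to lie lower in Gpx1 (r = 0.62 over all cells with preparation means subtracted).

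The other best matches were lower. Prdx4 was closest to Ndufb5, a subunit of respiratory complex I (r = 0.489, -0.08 to 0.734 over preparations). Sod1 was closest to the ribosomal protein pseudogene Rplp2-ps1 (0.454) and to Ftl1, the ferritin light chain (0.409). Prdx1 was closest to Dynll1, a dynein light chain (0.431), and Prdx6 to Uchl1, a deubiquitinase abundant in spermatogonia (0.342). Prdx2, Prdx5, Sod2 and Gpx4 had best values of 0.323 with Actl6a, 0.301 with Siva1, 0.276 with Zfyve19 and 0.341 with Mrps14. Prdx3 had 0.245, the lowest of the 10, with a gene whose name appears in the matrix in the form of a date. Within preparations, the lowest value was below 0 for the matches of Prdx2 (-0.27), Sod2 (-0.05), Gpx4 (-0.028) and Prdx6 (-0.022). For the matches of Prdx1, Prdx3, Prdx5 and Sod1 with the highest value, it was above 0 in every preparation.

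The antioxidant response element is a promoter motif bound by NRF2, the main inducer of antioxidant genes. Its core, TGACNNNGC, was searched on both strands of the 300-base RefSeq windows (GRCm38.p6) at gene starts, and 12.4% of 32851 promoters hold it. The 9 members with a RefSeq window have 12 windows, and 2 of the 12 hold the letters, 1 each for Prdx1 and Sod1. These are shown with 10 bases on each side, read along the gene, with the motif in capitals. Both matches lie on the opposite strand. Prdx6 was not matched.
Prdx1, chr4:116685456-116685484: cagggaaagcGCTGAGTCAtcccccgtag
Sod1, chr16:90220696-90220724: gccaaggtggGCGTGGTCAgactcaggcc
The motif starts 133 bases before the RefSeq start of Prdx1 and 56 bases before that of Sod1; these starts lie downstream of the GENCODE gene starts given above. A match of letters is a description, not a site, and a relation of the motif to transcript levels was not tested.

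The enzymes that feed and accompany these genes gave no called gene either. Of 109 listed genes in 8 lists, 107 were in the matrix and 86 were tested, and 0 were called between Q1 and Q4 or in the trend; at an unadjusted p under 0.05, 13 of the 86 were higher in Q1 and 1 was lower, beside 10.4% higher and 1.03% lower over all genes. Their median Q1 minus Q4 difference was 0.13, beside 0.17 over all genes. In the thioredoxin system, which reduces peroxiredoxins, 1 of 14 tested genes was higher and 1 lower at the unadjusted level. Txnip, an inhibitor of thioredoxin, had the smallest p there, with 149 ± 39.9 FPKM in Q1 and 108 ± 45.3 in Q4 (adjusted p = 0.242 in limma), and the lower gene was Txnrd2, the mitochondrial thioredoxin reductase, with 4.96 ± 2.03 FPKM in Q1 and 17.7 ± 13.5 in Q4 (adjusted p = 0.394).

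In the glutathione system, 4 of 18 tested genes were higher in Q1 at the unadjusted level and 0 lower. Over all genes tested, 10.4% were higher and 1.03% lower at that level, so few lower genes are found in any list. Gstp1, a glutathione transferase, had 61.1 ± 8.70 FPKM in Q1 and 51.96 ± 8.73 in Q4, and reached 1 FPKM in 91.7% of cells. The difference of its mean log2(FPKM + 1) was 1.04 ± 0.29, with the same sign in 5 of 5 preparations (adjusted p = 0.163 in limma). Cells near 0 weigh more on that scale than in mean FPKM. In the list of catalase, other dismutases and metal handling, 3 of 9 were higher and 0 lower. They were led by Ccs, the copper chaperone of Sod1, with 46.8 ± 9.88 FPKM in Q1 and 42.9 ± 25.4 in Q4. Ccs reached 1 FPKM in 58.3% of cells, and its difference on the log2 scale was 0.96 ± 0.34 (adjusted p = 0.273 in limma). In the NRF2 pathway, 0 of 14 passed the unadjusted level, and Nfe2l2, which encodes NRF2, had 58.3 ± 11.02 FPKM in Q1 and 46.4 ± 15.3 in Q4 (adjusted p = 0.579).

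Of the remaining lists, NADPH supply had 2 of 11 tested genes higher at the unadjusted level, led by Idh1, a cytosolic NADPH-producing dehydrogenase (147 ± 52.4 FPKM in Q1 and 116 ± 42.1 in Q4, adjusted p = 0.336 in limma). The selenocysteine machinery, on which Gpx1 and Gpx4 depend, had 2 of 8 higher, led by Secisbp2, which binds the selenocysteine signal of the message, with 15.98 ± 3.3 FPKM in Q1 and 8.97 ± 5.28 in Q4 (adjusted p = 0.339). Oxidative folding in the endoplasmic reticulum had 1 of 9 higher, Hspa5, a chaperone (278 ± 41.6 FPKM in Q1 and 227 ± 26.8 in Q4, adjusted p = 0.431). None of these lists had a lower gene at the unadjusted level, beside 10.4% higher and 1.03% lower over all genes tested. Of 11 listed NADPH oxidase genes, whose products make superoxide, 3 were tested and none passed the unadjusted level; Cyba, a membrane subunit, averaged 27.1 FPKM over cells and reached 1 FPKM in 56.5% of them.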

How the data were processed

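Single-cell libraries of 278 cells were analysed from the deposited matrix of FPKM, a read abundance per length of transcript and per mapped fragments of the cell. The submitters' processing notes name TopHat, Cufflinks, Picard, FastQC and the mm10 (GRCm38) genome. Tool versions and the strand setting were not found there. That the deposited values are FPKM was inferred from the quantifier named and from the values. The run number in the sample titles was taken as the preparation.

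FPKM are not counts, so log2(FPKM + 1) was averaged over cells into 20 means of 5 preparations and 4 quartiles, with 4 to 20 cells each, and fitted with limma 3.58.1 (R 4.3.3, data.table, version 1.17.8; trend, weights by number of cells, preparation as a block, 12 residual degrees of freedom, two-sided, Benjamini-Hochberg threshold 0.05). The pseudocount of 1 understates changes of low genes. Same-preparation means deviated together (30 pairs, median correlation 0.19, lowest 0.0758), so the numbers pair the means. Depth was estimated from steps among the low values of 2110 single-transcript genes; estimates from separate gene sets lay within 1.25-fold in 261 cells, and it is an effective depth if values were rescaled. Near copies were searched with BLAST 2.17.0; Python 3.11.15, pandas 2.3.3, NumPy 2.4.6 and matplotlib 3.10.9 were used. All 10 members are named, with the 3 tested genes most correlated with each considered for likeness and the gene of smallest p per related list, 1 of which is not reported here. The members and lists were chosen with earlier results of these data known. Other alternatives covered the pseudocount, filter, weights, scaling, detected genes, the quartiles fitted and leaving out each preparation.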

Additional observations from a re-analysis of the deposited data

Results flagged for a closer look

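Among 40 groups of 5 preparation means (10 genes in 4 quartiles), 5 held a mean far from the others by Dixon's criterion, and chance gives about 1 in 20. All 5 were low values of preparation 3, which also had the fewest detected genes. Values are mean log2(FPKM + 1). Prdx2 was at 4.80 in Q1, where the other preparations lay between 6.94 and 7.19. In Q2, Prdx2 was at 5.52, with the others between 6.66 and 6.96. Prdx3 was at 2.47 in Q3, with the others between 4.87 and 5.19. Prdx4 was at 7.03 in Q3, with the others between 7.98 and 8.31. Prdx6 was at 4.89 in Q2, with the others between 6.18 and 6.63.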

How the results depend on the processing

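No member was called in any of 290 alternative values of the Q1 minus Q4 difference and the slope per quartile step; 282 kept the direction and the lowest adjusted p was 0.0774, for the Prdx1 slope at the common 75th percentile. The rest changed sign. At a common 75th percentile, Sod1 had a Q1 minus Q4 difference of 0.0569 and a slope of 0.00821. With detected genes as a covariate, Gpx4 had a difference of -0.107 and a slope of -0.0204, and Prdx3 a slope of -0.0148. Leaving out 1 preparation gave -0.0636 to 0.296 for the Gpx4 difference, -0.00981 to 0.103 for its slope and -0.0294 to 0.0977 for the Prdx3 slope, each lowest without preparation 3. Counts over all genes moved more. For Q1 minus Q4 (8 genes), 0 were called with limma with no replicate block, no filter, the log of the mean over cells, equal weights, detected genes as a covariate or only the quartiles compared (unadjusted 592, 1571, 863, 1106, 563 and 1076), 44 at the common 75th percentile and 0 to 11 without 1 preparation. For the trend (14 genes), 0 were called with no replicate block, no filter, the log of the mean, equal weights or the covariate (unadjusted 643, 1632, 877, 1165 and 584), 64 at the 75th percentile, 28 at a sum of 1000000 per cell and 0 to 9 without 1 preparation. For Q3 minus Q4 (0 genes), 1 was called with no filter. The cause of these changes was not tested. Taking any value above 0 as present gave 76.6% of cells for Prdx3, against 76.3% at 1 FPKM. At the estimated depth, a transcript of a few molecules may be missed in a cell.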
